A study of Mus musculus with 2 samples.

Results

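The MYC, MAX and MXD network was described here by 9 genes of the mouse: Myc, Mycn, Max, Mxd1, Mxd3, Mxd4, Mxi1, Mnt and Mlx. Its members were all probe sets that the platform annotation assigns to exactly 1 of these genes, which gave 21 of 34945 such probe sets and 9 of 18193 genes. Expression had been measured with 1 Affymetrix whole-genome mouse array per genotype, in epithelial cells carrying CD34, sorted from skin tumours. The tumours of both genotypes had been induced with the carcinogen DMBA at postnatal days 23, 25 and 27, with repeated applications of TPA, a phorbol ester that promotes tumours, and with further DMBA at 7 weeks of age. One array carried RNA from a wild-type mouse. The other carried RNA from a K14CreER:Rosa-VEGF-164 mouse, in which Cre, driven by the keratin 14 promoter of basal epidermis, is meant to release a VEGF transgene. The sources used here do not say how Cre was activated or how many animals or tumours each sample held.

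Proteins of this network share a basic helix-loop-helix leucine zipper and act as dimers. MYC and MYCN pair with MAX and bind the E-box CACGTG to activate genes of growth and division. The MXD proteins (MXI1 among them) and MNT compete for MAX and bind the same site, where they bring in the SIN3 and histone deacetylase corepressor. MLX is a second hub that does not pair with MAX but joins MXD1, MXD4, MNT and the glucose-sensing Mondo proteins. In the epidermis, Myc is known from the proliferating basal layer and Mxd1 from cells that have begun to differentiate.

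Because the network's dimers bind CACGTG, the promoters of the members themselves were searched for that palindromic hexamer, in windows of 250 bases before to 50 bases after each start site. RefSeq promoter sequences of build GRCm38.p6 matched 8 of the 9 genes, and 4 of the 8 held the E-box, beside 8.09% of 27025 genes with a promoter in the same table. Myc had no promoter entry there and was not searched. Each of the 4 is printed in a stretch around the site on the gene's own strand, 5′ to 3′, with the E-box in capitals, because these are the members whose own start regions carry the letters that the network reads.
Max, chr12:76962229-76962268, minus strand: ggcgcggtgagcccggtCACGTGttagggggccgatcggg
Mlx, chr11:101087233-101087272, plus strand: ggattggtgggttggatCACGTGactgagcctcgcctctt
Mnt, chr11:74830784-74830823, plus strand: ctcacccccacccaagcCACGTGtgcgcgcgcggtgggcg
Mxd4, chr5:34187907-34187946, minus strand: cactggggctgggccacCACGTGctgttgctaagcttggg

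The E-box began 3 bases before the start site in Max, 40 in Mlx, 123 in Mnt and 219 in Mxd4. The full windows of these 4 had a GC content from 55.0% in Mlx to 70.7% in Mnt, and among all promoters with a GC content of at least 55.0% the share with an E-box was 10.2%. The windows of Mxd1, Mxd3, Mycn and Mxi1, which has 3 annotated starts, held no CACGTG. A match describes the letters and does not show that any protein was bound.

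The values are log2 signals, which the submitters' processing notes tie to MAS5, and signals are printed here after removal of the logarithm, in the array's arbitrary units. Background was the 90th percentile of the signals of 80 probe sets for odorant and pheromone receptors, which was 19.8 on the wild-type array against 11.3 on the one labelled VEGF. All ratios divide the VEGF-labelled array by the wild-type array, and a gene took its probe set of highest mean log2 signal. With 1 array per genotype no test was possible, and genotype, animal, sort and array cannot be told apart. Error could be judged only from how far different probe sets for a gene disagreed, as an SD per probe set on the log2 ratio scale: 0.50 at low, 0.42 at middle and 0.32 at high signal. It leaves out the spread between animals and tumours. Signals of different genes come from different probes, so the gene called brightest in a list has the highest signal there, which does not rank transcript levels.

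Of the 9 members, 1 was at least 2-fold higher on the array labelled VEGF, Mxd1, and 0 were at least 2-fold lower. Over the 12198 genes that gave a ratio or a bound on it, 3.87% were that much higher and 8.53% that much lower, so a single member past 2-fold says nothing about the network as a whole. Higher genes made up 31.2% of those past 2-fold, and 51.1% after quantile normalization. The member median was -0.23, beside -0.04 over all genes, and it was 0.11 after scaling to a common median with an offset of 50. Above 0 were 3 members and below it 6, beside 47.1% of all genes above 0. The network was therefore described gene by gene. At the level of probe sets, 17 of 21 were above background on both arrays, 3 only on the array labelled VEGF and 1 on neither. Over all probe sets with 1 gene, 58.3% passed background for wild-type, beside 65.2% for VEGF. Wild-type background was the higher, 19.8 against 11.3. The wild-type signals of Mxd3 1422970_at (15.7) and Mxd4 1422574_at (12.8) lay between these limits. That of Mycn 1425923_at (8.81) was below both. Of the 20 member probe sets with a ratio or a bound, 2 passed 2-fold upward and 0 downward, beside 3.53% and 10.3% of all probe sets. The plot of signals by probe set shows each pair of values.

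**Figure D1:**
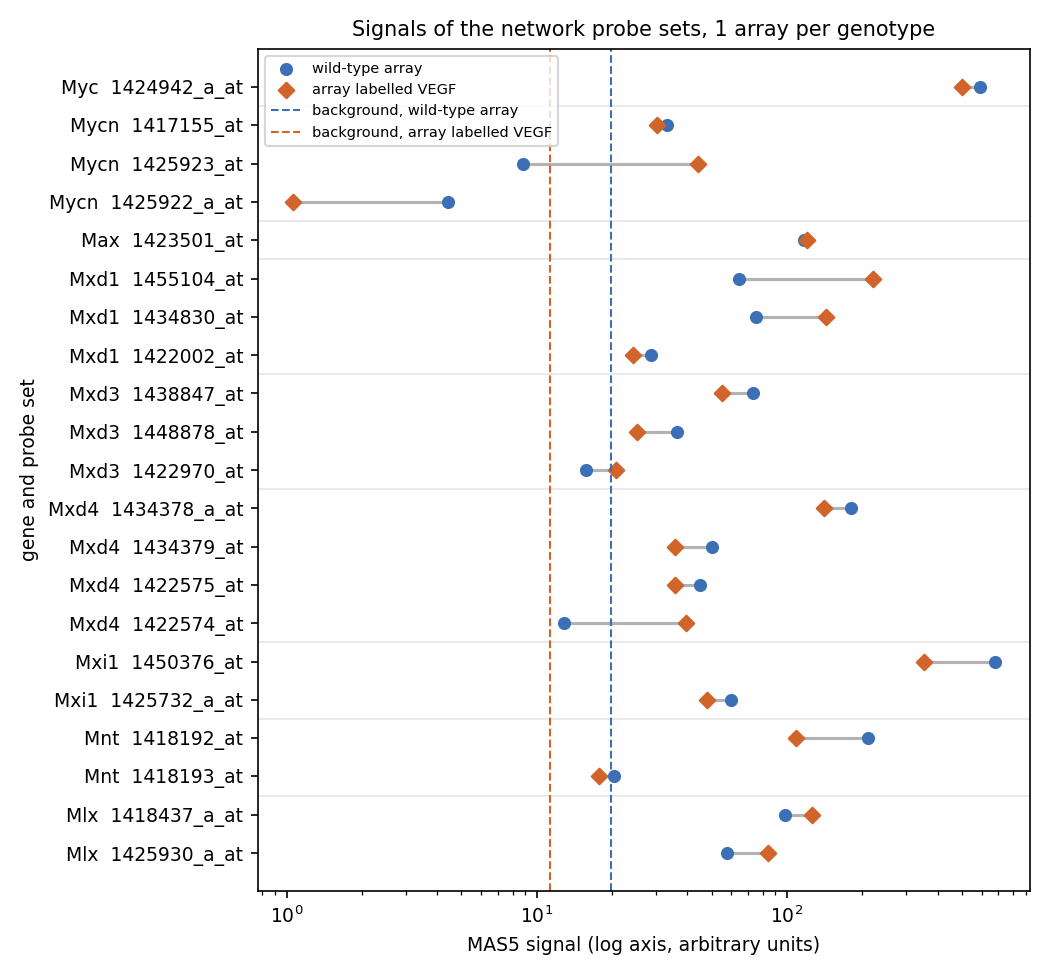
MAS5 signal (log axis, arbitrary units) of all 21 probe sets of the 9 members on the wild-type array (blue circles) and the array labelled VEGF (orange diamonds), with each array's background as a dashed line. The Mxd1 probe set 1455104_at has the widest gap among probe sets above background on both arrays, 64.2 against 219.8, and the single Max probe set has 116.6 against 120.8.

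Myc, the network's main activator, was clearly expressed in both samples and differed little. Its only probe set, 1424942_a_at, had a signal of 588.5 on the wild-type array against 502.1 on the one labelled VEGF. The log2 ratio of -0.23 was smaller than the probe set SD of 0.32 at this signal, and its sign turned to 0.15 with the offset of 50 after median scaling, a setting that moved the median of all genes by 0.27. Relative to the median of all genes in that setting, Myc stood at -0.08.

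Mycn, the paralogue best known from embryonic and neural tissue, was near background, and its probe sets went apart. The probe set 1417155_at had signals of 33.1 on the wild-type array against 30.2 on the one labelled VEGF, a log2 ratio of -0.13 with an SD of 0.50. The probe set 1425923_at had 8.81 on the wild-type array, below background, and 44.2 on the array labelled VEGF, which is at least 2.23-fold higher. The third, 1425922_a_at, was below background on both, at 4.41 and 1.06. The value for Mycn thus rested on which probe set was read, as the median over its probe sets gave 0.51. It also rested on the scaling, as quantile normalization gave 0.19.

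Max, which encodes the obligate partner of MYC and a shared partner of the MXD proteins, was nearly equal on the arrays. Its single probe set, 1423501_at, had a signal of 116.6 on the wild-type array against 120.8 on the one labelled VEGF. The log2 ratio was 0.05 with an SD of 0.42, and 42.9% of all genes had a ratio at least as high.

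Mxd1, which encodes the MXD repressor known from differentiating keratinocytes and granulocytes, was the member that stood out on the array labelled VEGF. Its brightest probe set, 1455104_at, had a signal of 64.2 on the wild-type array against 219.8 on the one labelled VEGF. This is 3.42-fold higher, a log2 ratio of 1.77 where single probe sets at this signal had an SD of 0.42. Only 104 of 12198 genes, 0.853%, had a ratio at least as high, and the share was 0.969% among the 2992 genes in the same range of signal.

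The other Mxd1 probe sets gave smaller values. The probe set 1434830_at had signals of 74.9 and 142.8 on the wild-type array and the array labelled VEGF, 1.91-fold higher, a log2 ratio of 0.93. On the wild-type array alone it was the brighter one, 74.9 against 64.2. Taking 1455104_at for the gene therefore rested on its signal on the array labelled VEGF. The probe set 1422002_at was dim, with 28.5 and 24.3, and its log2 ratio of -0.23 was within the SD of 0.50 at low signal. So the brighter pair went the same way, the dim one did not, and the median over the 3 was 0.93, under 2-fold. Which part of the transcript each probe set reads is not stated in the annotation.

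**Figure D2:**
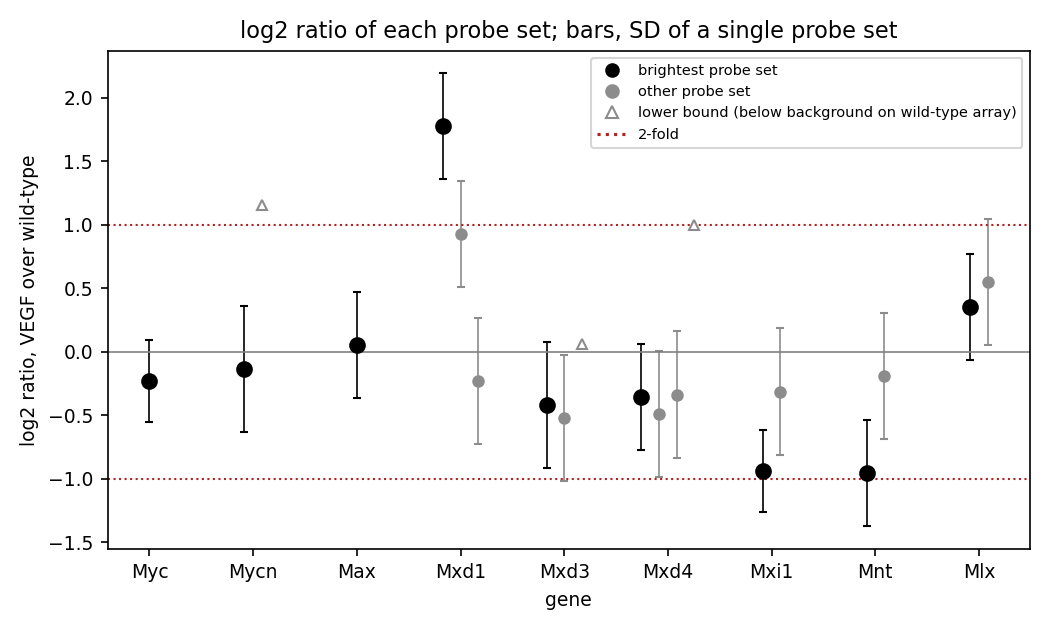
The log2 ratio (array labelled VEGF over wild-type) of each of the 20 member probe sets with a ratio or a bound, by gene; black points are brightest probe sets, grey points the others, open triangles lower bounds, bars 1 SD of a single probe set at that signal, and dotted lines 2-fold. Mxd1 reaches 1.77, while Mxi1 and Mnt lie at -0.94 and -0.96, just inside the 2-fold line.

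Mxi1, also an MXD-type repressor, known as a gene that low oxygen induces through HIF, was lower on the array labelled VEGF. Its brighter probe set, 1450376_at, had a signal of 676.6 on the wild-type array against 352.5 on the one labelled VEGF. This is 1.92-fold lower, a log2 ratio of -0.94 with an SD of 0.32, and 9.85% of all genes, or 3.80% of the 3946 genes at high signal, had a ratio as low. The dimmer 1425732_a_at had 59.7 and 48.1, a log2 ratio of -0.31 that was within its SD of 0.50. Both probe sets lay on the same side. The brighter was just past 2-fold after quantile normalization, at -1.005, and stood at -0.50 with the offset of 50 after median scaling.

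Mnt, a widely expressed MAX-binding repressor gene, had a ratio of nearly the same size. The probe set 1418192_at had a signal of 211.6 on the wild-type array against 109.2 on the one labelled VEGF, 1.94-fold lower, a log2 ratio of -0.96 with an SD of 0.42. A ratio as low was found in 9.52% of all genes and in 3.98% of those at middle signal. The probe set 1418193_at was close to background, at 20.3 and 17.8, with a log2 ratio of -0.19. With the offset of 50 after median scaling Mnt stood at -0.44, or -0.67 relative to the median of all genes.

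Mxd3 and Mxd4, the MXD genes linked to the S phase of dividing precursors and to resting or differentiated cells, had ratios within or near the probe set error. For Mxd3, 1438847_at had a signal of 73.4 on the wild-type array against 54.9 on the one labelled VEGF, a log2 ratio of -0.42, and 1448878_at had 36.3 and 25.2, a log2 ratio of -0.52. The dim 1422970_at had 15.7, below background, and 20.7, which allows only the statement that it was at least 1.05-fold higher. The Mxd3 pair above background agreed in sign, and -0.42 lay within the SD of 0.50. A ratio as low was found in 41.9% of genes at low signal, where the median was -0.27.

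For Mxd4, the brightest probe set, 1434378_a_at, had a signal of 180.5 on the wild-type array against 141.2 on the one labelled VEGF, a log2 ratio of -0.35 with an SD of 0.42. The probe sets 1434379_at and 1422575_at gave -0.49 and -0.34, from 50.1 against 35.6 and from 44.9 against 35.6 (wild-type against VEGF). Against these 3, 1422574_at had 12.8, below background, and 39.7 on the array labelled VEGF, at least 2.00-fold higher after rounding and just under the 2-fold limit before it. With the offset of 50 after median scaling the sign of Mxd4 turned, to 0.03, while relative to the median of all genes it was -0.20.

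Mlx, the hub of the Mondo arm, was slightly higher by both of its probe sets. The probe set 1418437_a_at had a signal of 98.5 on the wild-type array against 125.6 on the one labelled VEGF, a log2 ratio of 0.35 with an SD of 0.42. The probe set 1425930_a_at had 57.6 and 84.3, a log2 ratio of 0.55 with an SD of 0.50.

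Of the 5 repressor genes of the network, 4 thus had a ratio below 0 by their brightest probe set, with Mxd4 at 0.03 under the offset setting, and Mxd1 alone was above 0. Over all genes 47.1% had a ratio above 0, so a count over 5 genes allows no reading. Mnt lay 2.73 log2 units below Mxd1 in ratio, and this difference could not be tested. The 4 members with an E-box in the promoter window had log2 ratios of 0.05 (Max), 0.35 (Mlx), -0.96 (Mnt) and -0.35 (Mxd4). Those without it had 1.77 (Mxd1), -0.42 (Mxd3), -0.94 (Mxi1) and -0.13 (Mycn). Neither set of ratios ran in a single direction.

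**Figure D3:**
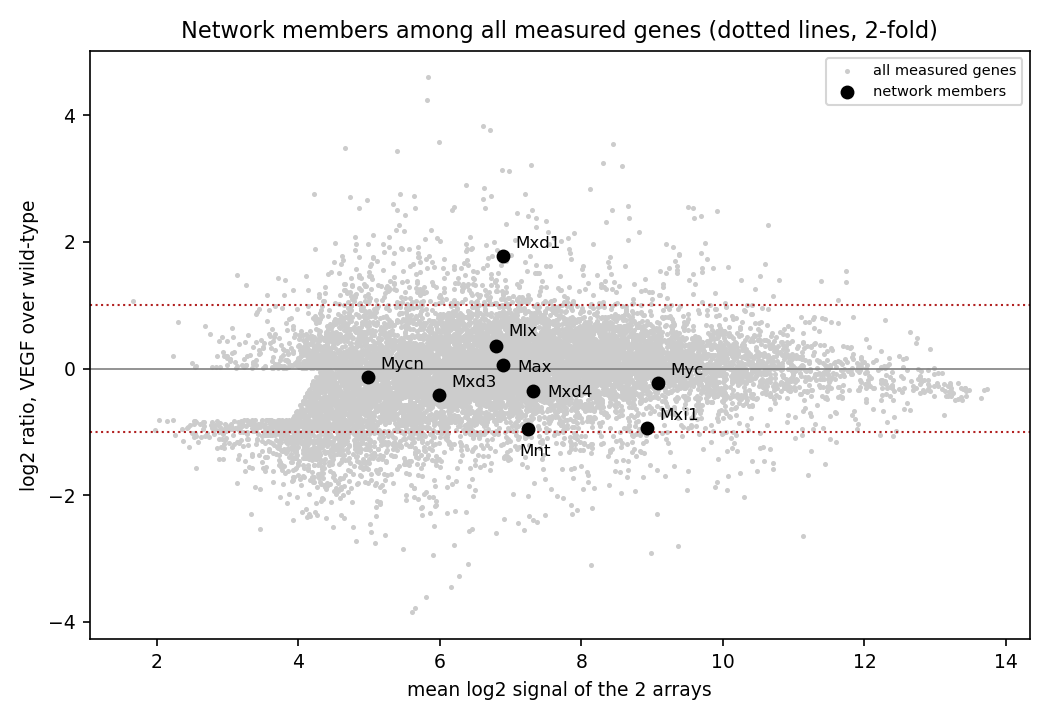
The log2 ratio against the mean log2 signal of the 2 arrays for all 12198 genes with a ratio or a bound (grey) and the 9 members (black); dotted lines mark 2-fold. Mxd1, at 1.77, is the member outside the 2-fold lines, and the other 8 lie between -0.96 and 0.35.

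Among the network's neighbours, Mycl, the third MYC paralogue, had a signal of 32.8 on the wild-type array against 55.3 on the one labelled VEGF, a log2 ratio of 0.76 (SD 0.50) that was 1.01 after quantile normalization. Mga, which encodes a large MAX partner of repressor complexes, was lower by all 3 probe sets above background. Their log2 ratios of -0.42, -0.55 and -0.63 were each about as large as the SD of 0.50 or a little above. All 3 lay in the lowest range of signal, where the median over genes was -0.27. Zbtb17, which encodes the MYC-binding repressor partner MIZ1, gave -0.36 by its brighter probe set, 114.2 against 88.8 (wild-type against VEGF), and at least 2.45-fold lower by a dim one. Mlxip, which encodes MondoA, gave 0.38 at wild-type 47.0 against VEGF 61.3. Mlxipl, its relative in liver and fat, was below background on both arrays. Of the 4 measured neighbours, 0 were at least 2-fold apart by their brightest probe sets, beside 12.4% of all genes. So few genes allow no reading of that count.

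The genes of the corepressor that MXD proteins and MNT recruit had small ratios by their brightest probe sets. Of 9 measured SIN3 complex genes, 0 were at least 2-fold apart, beside 12.4% of all genes, with a median of -0.08 that was 0.29 with the offset of 50 after median scaling. The largest ratios were those of the histone-binding subunit gene Rbbp4 (-0.42), the deacetylase gene Hdac2 (-0.34), Sap130 (0.29) and the scaffold gene Sin3b (0.19). Other probe sets ran from -1.55 to 0.55 for Rbbp4 and from -0.77 to 0.28 for Sin3b. Rbbp7, the brightest, gave -0.09. Of 11 measured MYC coactivator genes, 0 were at least 2-fold apart by their brightest probe sets, beside 12.4% of all genes, with a median of 0.20. Trrap, the scaffold of MYC-bound acetyltransferases, gave -0.68 from 250.8 against 156.1 (wild-type against VEGF), and was followed by the helicase gene Ruvbl1 at 0.57, the acetyltransferase gene Kat5 at 0.43 and Hcfc1 at 0.36. Cdk9, which encodes the elongation kinase and was the brightest, gave 0.24. Other probe sets ran from -1.63 to 0.18 for Kat2a and from 0.08 to 0.67 for Hcfc1. They gave -1.27 for Ccnt1, -0.34 for Cdk9, -0.02 for Kat5 and 0.19 for Wdr5. Those of Kat2a and Ccnt1 thus reached past 2-fold downward.

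Of 13 measured genes that control the stability of the MYC protein, 1 passed 2-fold downward and 0 upward, beside 8.53% and 3.87% of all genes; their median was 0.20. This was Gsk3a, which encodes a kinase of the glycogen synthase kinase 3 family that marks MYC for destruction. Its signal was 834.8 on the wild-type array against 417.1 on the one labelled VEGF, a log2 ratio of -1.001 with no further probe set to compare. It lay at the threshold itself, and centring the ratios took it under 2-fold. Its relative Gsk3b gave -0.07, and Fbxw7, the ubiquitin ligase subunit gene that reads that mark, gave 0.21; these genes were added after their values were seen. The ligase gene Skp2 (0.76, with other probe sets between 0.35 and 0.41), the mitotic kinase gene Plk1 (0.71) and the ligase gene Huwe1 (0.62, with others between -1.49 and 0.07) were higher by less than 2-fold, and Set, which encodes an inhibitor of a protein phosphatase and was the brightest, gave 0.02.

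By their brightest probe sets, genes that MYC is known to induce were slightly higher on the array labelled VEGF, with none past 2-fold. Of 37 measured, 33 had a log2 ratio above 0 and 4 below, with a median of 0.36. Among them 0 were at least 2-fold apart, beside 12.4% of all genes. Over all genes 47.1% had a ratio above 0, and in the highest range of signal, which held 30 of the 37, 55.6% did, with a median of 0.06. The largest ratios were those of Nme1, a nucleoside diphosphate kinase gene (0.80, from wild-type 2039 against VEGF 3547), Cad, the first enzyme of pyrimidine synthesis (0.78), and the nucleolar genes Nolc1 (0.71) and Grwd1 (0.70). For Cad and Nme1 a second probe set went along, at 0.92 and 0.90, while for Grwd1 the others ran from -0.54 to 0.67. They ran from -1.85 to 0.61 for Ran, from -1.76 to 0.24 for Eif4e and from -0.53 to 0.77 for Shmt2. Bop1 had another at -0.75. Some genes counted above 0 thus had another probe set below 0, for Ran and Eif4e past 2-fold.

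The 4 induced genes below 0, named after their values were seen, included long-used readouts of MYC. Odc1, the polyamine synthesis enzyme gene, gave -0.27 from wild-type 4594 against VEGF 3807, but its other probe sets gave 0.26 and 0.78. Tfrc, the transferrin receptor gene, gave -0.31 with others at 0.36 and 0.83, Apex1 gave -0.19 with others between -0.07 and 0.32, and Ldha, the brightest of the list and also a hypoxia gene, gave -0.19. For Odc1, Tfrc and Apex1 the sign therefore depended on the probe set. Many genes of this list belong to the nucleolus and to growth in general, and none of them reports on MYC alone.

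Genes that MYC is known to repress lay mostly lower. Of 11 measured, 4 passed 2-fold downward and 0 upward, beside 8.53% and 3.87% of all genes. In the highest range of signal, which held 8 of the 11, 3.40% of genes passed downward and 2.81% upward. Below 0 were 9 of the list and above 0 were 2, with a median of -0.50. Over all genes 47.1% were above 0, and 55.6% in that range. Gas1, a growth arrest and Hedgehog co-receptor gene, was 2.76-fold lower (wild-type 2259.7 against VEGF 818.2), Clu, which encodes the secreted chaperone clusterin, 2.75-fold (667.5 against 242.8), Ndrg2 2.67-fold (195.8 against 73.2) and Ndrg1, which hypoxia also induces, 2.24-fold (4663 against 2079). The further probe sets of Gas1, Clu and Ndrg1 were below 0 as well, from -1.77 to -0.25. The cell cycle inhibitor genes of the list had smaller ratios: Cdkn1b gave -0.60 with another probe set at 0.02, Cdkn2b -0.23 and Cdkn1a 0.18 (added after their values were seen). Leaving out probe sets that can bind several transcripts left 2 of the 4 past 2-fold, Gas1 and Ndrg2, and the offset of 50 after median scaling left Gas1 alone.

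Targets of the MLX and Mondo arm went both ways. Of 8 measured, 1 passed 2-fold downward and 0 upward, beside 8.53% and 3.87% of all genes, with 4 on each side of 0. Scd1, a fatty acid desaturase gene, was 2.25-fold lower (wild-type 898.2 against VEGF 398.4) with another probe set at -0.62. Arrdc4 gave 0.95 (105.3 against 203.5), although another probe set gave -0.15, and Fasn, the fatty acid synthase gene, 0.90 (365.2 against 683.7). Txnip, the arrestin-domain gene most closely tied to MondoA, gave -0.39, and Klf10, a zinc finger factor gene and the brightest, -0.17. The sign of Arrdc4 thus depended on the probe set.

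**Figure D4:**
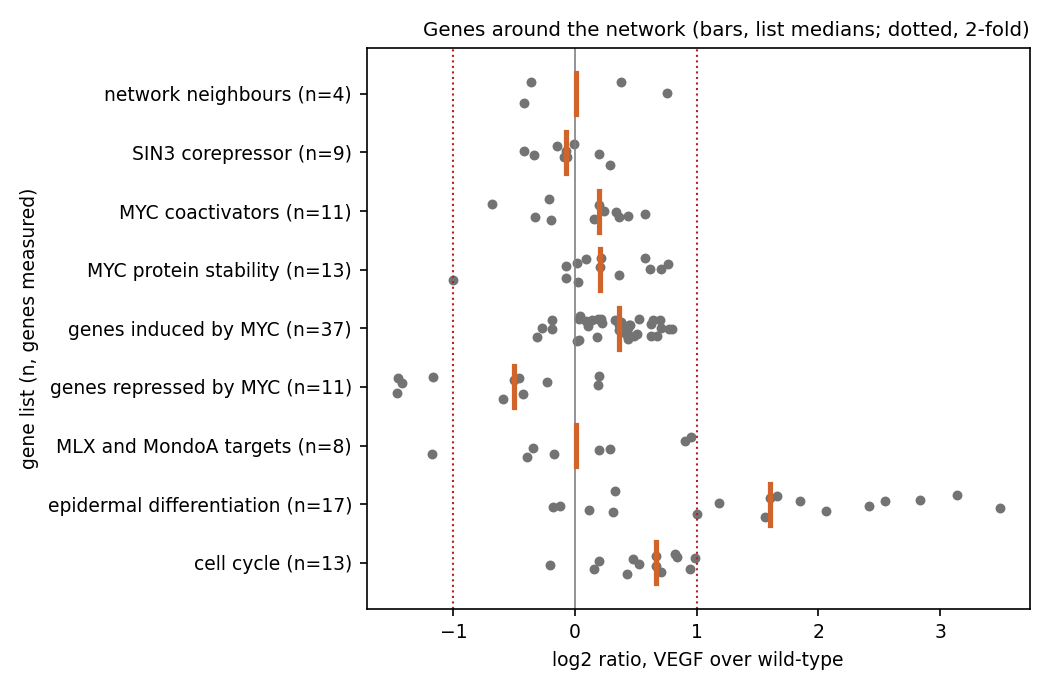
The log2 ratio (array labelled VEGF over wild-type) of the measured genes of 9 lists around the network; each point is 1 gene by its brightest probe set, orange bars are list medians and dotted lines 2-fold. The genes induced by MYC gather around 0.36 without reaching 2-fold, those repressed by MYC have a median of -0.50, and the epidermal differentiation genes reach 3.49, which is a lower bound for Sprr3.

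Differentiation and division, the cell states between which MXD1 and MYC are known to act, were set beside the members. Of 17 measured epidermal differentiation genes, 12 passed 2-fold upward and 0 downward, beside 3.87% and 8.53% of all genes, and their median was 1.60. They were led by Sprr3, at least 11.2-fold higher, Crct1 (8.83-fold), Tgm3 (7.12-fold) and Sprr1a (5.84-fold), while Krtdap, the brightest, gave -0.12. Mxd1, with 3.42-fold by its brightest probe set, was higher on the array on which this list was higher, and its other probe sets gave 0.93 and -0.23. The list was chosen with earlier results of these data known. Of 13 measured cell cycle genes, 12 were above 0, beside 47.1% of all genes, with a median of 0.66. Among them 0 were at least 2-fold apart, beside 12.4% of all genes. The highest range of signal held 11 of the 13, and there 55.6% of genes were above 0. In it 2.81% were at least 2-fold higher and 3.40% lower. Bub1 (0.98), Cdk1 (0.95), Ccne1 (0.84) and Ccnd1 (0.82, also the brightest) had the largest ratios of the 13, by their brightest probe sets. Another Bub1 probe set gave -0.84 and another for Ccne1 0.25, while the other Ccnd1 probe sets were between 1.005 and 1.45, past 2-fold. With 2 arrays, no relation between these lists and any member could be tested.

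Vegfa, the gene to be gained, had a signal of 803.5 on the wild-type array against 397.3 on the one labelled VEGF, 2.02-fold lower. Its other probe set had 302.4 against 126.6, 2.39-fold lower. Whether these probe sets read the transgene is not known, so the genotype label was not checked by it. The 8 basal keratinocyte and sort markers were above background on both arrays by their brightest probe sets. Of these, 0 were at least 2-fold apart, beside 12.4% of all genes, with log2 ratios on both sides of 0. Other probe sets ran from -2.52 to -0.37 for Trp63 and from -0.71 to -0.12 for Krt14. Further ones gave -1.16 for Epcam and -0.50 for Itga6, and the remaining markers had none with a ratio. Krt14 had 8990 on the wild-type array against 8571 on the one labelled VEGF, while Cd34, the marker of the sort, gave 0.80 (430.3 against 751.2), Trp63 -0.77 and Itga6 -0.71. The summed signal of the 7 fibroblast markers was 1156 on the wild-type array against 2677 on the one labelled VEGF. Of the 7, 2 were at least 2-fold higher, beside 3.87% of all genes. The 2 were Col3a1 (489.9 against 1235) and Col1a2 (323.7 against 942.0), while Dcn and Pdgfrb gave -0.34 and -0.07. Lum gave 0.83, Pdgfra at least 0.80 and Col1a1 0.80, with another Col1a1 probe set at 2.04. Of the 7, 5 were above 0, with a median of 0.80. The summed signal of the 9 leukocyte markers was 618.8 on the wild-type array against 1438 on the one labelled VEGF. S100a8, also a keratinocyte gene, made up 454.7 and 1279 of it. Cd3e, Cd3g, Cd79a and Itgam were below background on both arrays. Endothelial markers summed to 131.9 and 152.8, melanocyte markers to 364.0 and 170.3, and muscle markers to 152.0 and 64.1. In each of the last pair 2 of 3 measured genes were at least 2-fold lower, for Des as a bound. That much lower were 8.53% of all genes and 15.3% of those at low signal. The part of the cells that these markers name in the ratios of Mxd1, Mxi1 and Mnt was not tested. Fewer cells of a type and less RNA per cell cannot be told apart in such samples.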

How the data were processed

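The deposited table holds log2 signals of 45101 probe sets, and the submitters' processing notes name MAS5 without a version or scaling target. Signals averaged 100.04 (2% trimmed mean) on both arrays. Probe sets were named from GEO's platform annotation, without 64 controls: 34945 had 1 gene and 932 several. All 9 member gene IDs were in the GRCm38.p6 gene table. With 1 array above background, the fold was a bound against the other array's floor. A change of at least 2-fold was counted, with no test. Scripts ran in Python 3.11.15 with pandas 2.3.3 and were tested on simulated data. All members, the neighbours and, of each list, the 4 genes with the largest ratios and the brightest were named. Members and lists were chosen with earlier results of these data known. The 9 alternatives were other floors, an offset, other scalings and other choices of probe set. The number of arrays limits the precision.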

Additional observations from a re-analysis of the deposited data

How the results depend on the processing

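Between 0 and 1 member was at least 2-fold higher and between 0 and 1 at least 2-fold lower over all alternatives: the median over probe sets left 0 higher, and quantile normalization made 1 lower (Mxi1). Mxd1 stayed above 0 in all of them, from 0.93 to 1.83. The share of higher among all genes at least 2-fold apart was 31.2% as reported, 51.1% after quantile normalization, 86.1% with the offset of 50 after median scaling, 43.1% with a common floor, 49.9% under a stricter filter on signal, and 51.1% for the offset of 50 without scaling, which was chosen after seeing the data. Mxd1 was 1.24 in the last of these. Counts of list genes at least 2-fold apart that moved by more than 1.5 times are given next; that of epidermal differentiation genes stayed between 10 and 14. With the offset after scaling they were 0 for MYC stability, 4 for genes induced by MYC, 1 for genes repressed by it, 2 for MLX targets and 3 for the cell cycle. Quantile normalization gave 1 neighbour, no floor gave 1 induced gene (Tert), and leaving out ambiguous probe sets gave 2 repressed genes. Centring gave 0 for stability and 1 for the cell cycle, the median over probe sets gave 0 for MLX targets and 1 for the cell cycle, and the offset without scaling gave 0 for stability. Their causes were not tested. No paired analysis was possible because there was 1 array per genotype, and none could be left out. Signals near background, as for Mycn, limit what can be read.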

Other observations

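The promoter windows of the members were also read for 3 other motifs on both strands, as a description only. The GC box GGGCGG, bound by Sp1-type factors, stood in the windows of 6 of the 8 genes (Mnt, Mxd1, Mxd3, Mxd4, Mxi1 and Mycn), beside 38.2% of all genes. The Mxd1 window held 6 matches in a sequence with 76.7% G and C. The 38.2% was not matched for GC content, which had a median of 52.7% over all promoters. The TPA response element TGANTCA, the AP-1 site, was in the windows of 0 of the 8, beside 8.97% of all genes. The letters ACGTG, the core of the hypoxia response element and part of every CACGTG, stood in those of Max, Mlx, Mnt, Mxd4 and Mxi1, beside 21.8% of all genes, and Mxi1 had them at 2 of its 3 starts without a full E-box.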
